A study of Homo sapiens with 9 samples.

Results

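The expression of the machinery that copies chromosomal DNA was followed through 49 genes in A2780 cells, an established human ovarian carcinoma line, with or without DIG-MSK for 24 h. The genes were taken as the members of the origin recognition complex, the licensing factors, the MCM helicase and its activators, the DBF4-dependent kinase, the replicative polymerases, the sliding clamp and its loader, RPA, the enzymes that finish Okazaki fragments, fork protection factors and the CAF-1 chaperone. A gene was represented by every array probe whose RefSeq transcript belongs to it by current symbol. All 49 were on the array, with 64 probes in all, out of 34425 genes and unnamed transcripts. All 49 were tested among 21457 that passed the filter on dim probes, and the probe used for each of the 49 was well above background on all 9 arrays.

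DIG-MSK is an analogue of mithramycin A, an antibiotic that binds GC-rich DNA. Untreated cells (no DIG-MSK) were compared with cells given 8 nM DIG-MSK and with cells given 80 nM DIG-MSK, each with 3 arrays, 9 in all. All cells belonged to the same line, so the values describe A2780 cultures and no other ovarian carcinoma. The methods describe the samples as independent biological replicates, and total RNA of each was hybridized to a SurePrint G3 one-colour array. The untreated and 8 nM arrays lay on a single slide, scanned together. The 80 nM arrays lay on another slide scanned at another time, so that for 80 nM the effect of the drug and that of the slide cannot be told apart.

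The 75th percentile of gene intensities, on which the arrays were scaled, ran from 832 (untreated replicate 1) to 1170. Between 24814 and 27151 probes were well above background, and no gene spot was saturated. The array with the fewest such probes was replicate 2 at 8 nM. The net signal of the negative controls differed by slide. It was 31.1 to 38.6 for the untreated and 8 nM arrays and 22.1 to 22.7 for the 80 nM arrays, and its part in the 80 nM values was not tested. The cell type was checked with 11 epithelial and ovarian carcinoma markers. Of these, KRT7, KRT8, KRT18, KRT19 and EPCAM were well above background on all 9 arrays and WFDC2 on 6 of them. CDH1, WT1, MUC16 and MSLN were above background on no array and PAX8 on 3 arrays, so these 5 defining markers did not pass the filter. Of 5 leukocyte markers PTPRC, CD14 and ITGAM passed (ITGAM on 8 of 9 arrays), and of 6 endothelial and fibroblast markers CDH5, DCN and PDGFRB passed. Their mean log2 levels in untreated cells, relative to the 75th percentile of the array, were -4.17, -3.96, -5.48, -3.19, -1.90 and -3.74. EPCAM and KRT19 were also dim, at -3.82 and -3.60, while KRT7, KRT8 and KRT18 read 2.30, 0.19 and 0.95. Passing the filter at such low levels does not show that other cell types were present. Of these 12 markers that passed, 2 were called (adjusted p under 0.05 in limma) at 8 nM, EPCAM (0.90 ± 0.22 (adjusted p = 0.0292)) and PDGFRB (0.58 ± 0.13 (adjusted p = 0.0195)), both higher. At 80 nM EPCAM (-0.93 ± 0.22 (adjusted p = 0.00649)) and DCN (-1.39 ± 0.23 (adjusted p = 0.00105)) were called lower, and KRT8 (0.30 ± 0.077 (adjusted p = 0.0105)) and ITGAM (0.50 ± 0.11 (adjusted p = 0.00439)) higher. These are log2 changes from untreated cells with their standard errors, and their part in the changes of the replication genes was not tested.

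Replication starts from origins that are licensed in G1, when the origin recognition complex, CDC6 and CDT1 load the MCM2-7 ring onto DNA. At the start of S phase the CDC7-DBF4 kinase, CDC45, GINS and MCM10 turn that ring into a running helicase, and the polymerases, PCNA and its loader follow it. Many of these genes are transcribed in late G1 and S phase under control of the E2F factors, so their transcripts are widely used as a readout of proliferation. All values below are log2 intensities relative to the 75th percentile of the same array, and changes are differences of group means ± the standard error given by limma, with n = 3 arrays per group. Such values compare arrays for the same probe, not genes with each other. A gene was called changed when its p-value, adjusted by Benjamini-Hochberg over all 21457 genes, was under 0.05.

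At 8 nM most of the replication genes were lower than in untreated cells. Of the 49, 25 were called lower and 1, PCNA, was called higher, while 5.75% of all genes tested were called lower and 7.93% higher. The change was negative in 45 of the 49, and its median was -0.32 on the log2 scale against -0.058 over all genes tested. In 32 genes every 8 nM array lay below every untreated array, which 18.5% of all genes did. The changes were small in size, and 3 genes (CLSPN, DBF4 and POLA1) also passed the rule in the study's methods of at least a 1.5-fold change with an unadjusted p under 0.05, which 2.84% of all genes passed in the lower direction and 4.27% in the higher, where none of the 49 did. In RNA from whole cultures, fewer cells in S phase and less RNA per cell cannot be told apart.

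The 26 genes called at 8 nM kept their direction in every fit tried, but the number of calls depended on the fit. Deviations of same-numbered untreated and 8 nM arrays from their group means correlated weakly, at 0.102 to 0.164. A limma fit of these 6 arrays with the replicate number as a block called CLSPN and DBF4 lower and none higher (0.839% of all genes lower). In that fit 26 of the 49 were lower and PCNA higher at an unadjusted p under 0.05. The same 6 arrays without the block gave 9 genes called lower. The fit of all 9 arrays shares a single estimate of the spread per gene, so the 80 nM arrays enter the 8 nM comparison. The SD of CDC45 was 0.21 at 8 nM and 0.033 at 80 nM, and that of FEN1 was 0.023 and 0.15. The part of this in the counts was not tested. Scaling the arrays on the spike-in probes left 0 of the 49 called, although all 26 kept their direction. Under this scaling 7 were lower at an unadjusted p under 0.05 in limma, and 0.117% of all genes were called lower. The log2 mean of the spike-in probes minus the log2 75th percentile spread over 0.45 among the untreated arrays and 0.68 among the 8 nM arrays. The spike-in mean by itself ran from 11.88 to 12.05 and from 11.86 to 12.04 in these groups. Leaving out an array moved the count of 25 to 15 (without untreated replicate 2), 12 (untreated replicate 3), 15 (8 nM replicate 1) or 14 (8 nM replicate 3), and to between 17 and 31 without any of the others. The shares of all genes called were not counted for the fit of 6 arrays without the block or for these omissions. The 11 genes called under all 9 of these omissions were ORC1, MCM7, CDC45, DBF4, POLA1, POLE, RFC2, FEN1, CLSPN, CHAF1A and CHAF1B.

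At 80 nM, 10 of the 49 genes (20.4%) were called higher and 11 (22.4%) lower than in untreated cells. Among all genes tested 33.5% were called higher and 25.6% lower, so neither share of the replication genes exceeded that of all genes. The median change was -0.095, beside 0.079 over all genes. Under the rule in the methods 4 were higher and 5 lower, beside 18.8% and 16.3% of all genes. All 80 nM arrays lay above all untreated arrays in 12 of the 49 and below them in 22, as they did in 40.4% and 31.6% of all genes. With the arrays scaled on the spike-in probes, which moved the median of all genes at 80 nM to -0.20, 1 member was called higher (PCNA) and 10 lower. Of all genes 8.32% were called higher and 22.8% lower under that scaling. The 8 and 80 nM comparisons share the 3 untreated arrays. Side by side, 8 genes were called lower at both concentrations, 12 lower at 8 nM only by call, 3 lower at 80 nM only by call, and 5 (ORC1, MCM2, MCM8, POLE2 and RFC2) lower at 8 nM and higher at 80 nM. A further 4 were called higher at 80 nM alone, PCNA was called higher at both, and 16 were called at neither.

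The direct comparison of 80 nM with 8 nM called 24 of the 49 higher and 6 lower at 80 nM, beside 34.8% and 22.9% of all genes, with a median difference of 0.19 and of 0.12 over all genes. The 80 nM and 8 nM arrays did not overlap in 32 of the 49, 25 of them with 80 nM above (39.4% of all genes) and 7 below (25.5%). Spike-in scaling turned the median to -0.17 and left 0 called higher (2 at an unadjusted p under 0.05 in limma) and 7 lower, with the median of all genes at -0.24. Of all genes 5.97% were called higher and 23.4% lower under it. By the probes used, the 6 called lower at 80 nM than at 8 nM were ORC2, MCM5, DBF4, RPA3, CLSPN and CHAF1A. The other probe of CHAF1A gave -0.094 ± 0.083 (adjusted p = 0.356 over probes, limma), and that of DBF4 rose by 1.09 ± 0.21 (adjusted p = 0.00234).

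**Figure D1:**
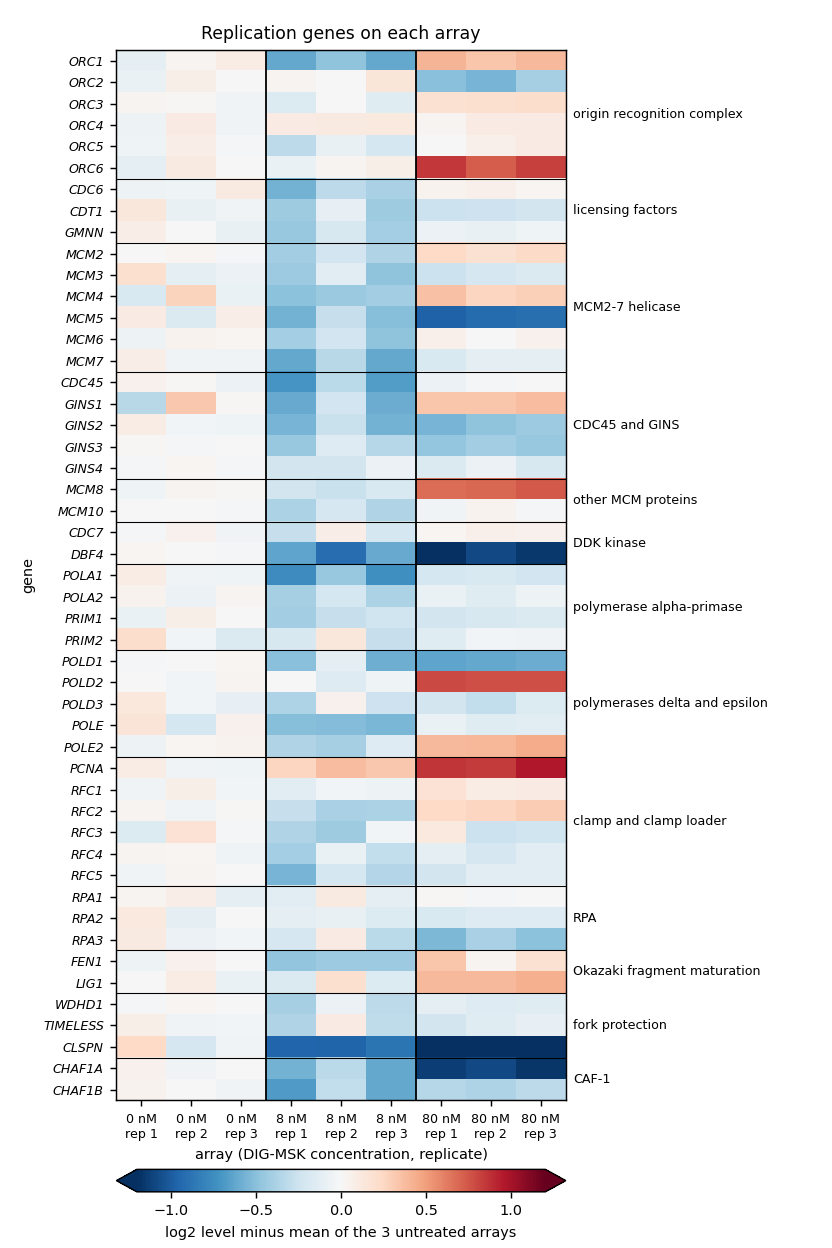
Level of each of the 49 genes (vertical axis, grouped by function) on each of the 9 arrays (horizontal axis, 0 nM being untreated), as the log2 difference from the mean of the 3 untreated arrays, with blue lower and red higher. The 8 nM columns are blue in most lines, palest in replicate 2, and the 80 nM columns mix deep blue (CLSPN, DBF4, CHAF1A, MCM5) with red (PCNA, ORC6, POLD2, MCM8).

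**Figure D2:**
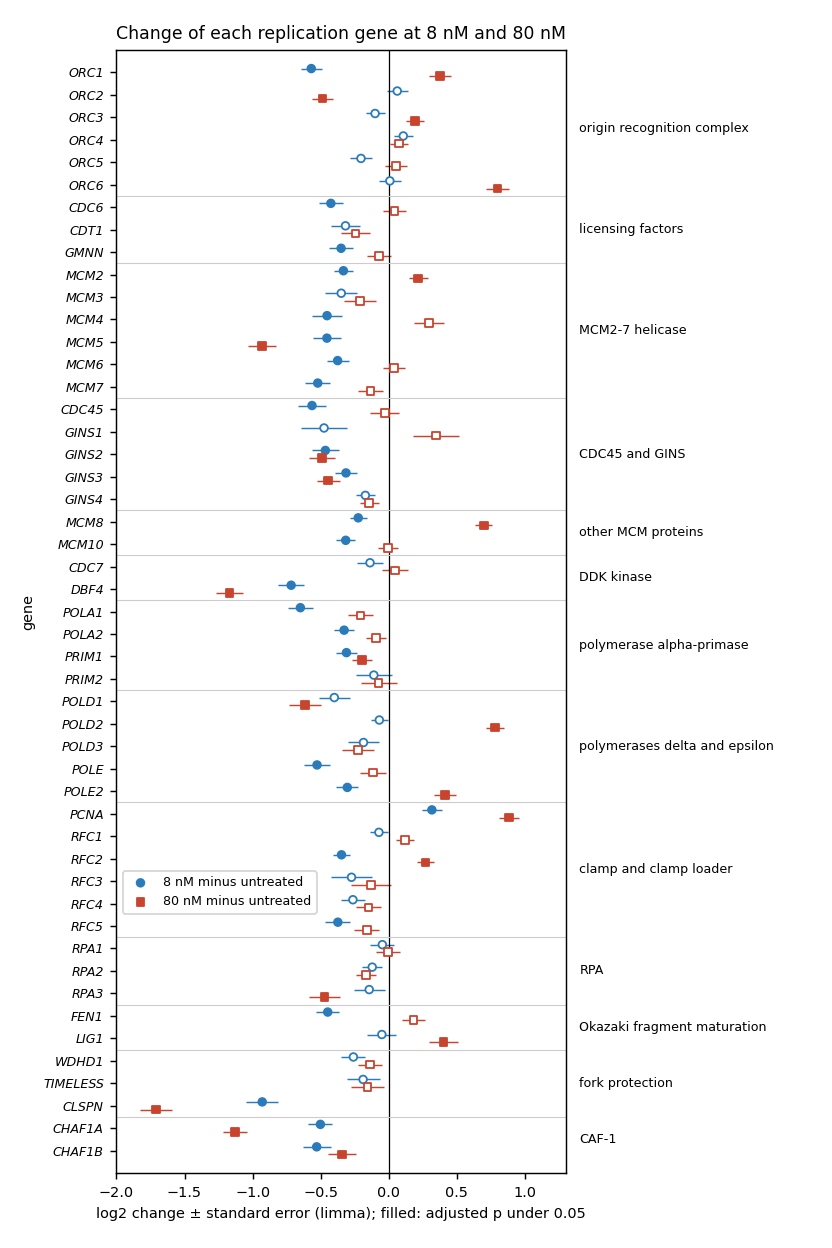
Log2 change (horizontal axis, with the standard error) of each gene (vertical axis) at 8 nM (circles) and at 80 nM (squares) against untreated cells, filled where the adjusted p was under 0.05. Most circles lie left of 0, while the squares spread from -1.71 (CLSPN) to 0.88 (PCNA); under spike-in scaling ORC3, MCM2 and RFC2 at 80 nM cross to the left of 0.

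Promoter letters were read because DIG-MSK belongs to a family that binds GC-rich DNA and because the genes are known E2F targets as a class. RefSeq promoter windows (GRCh38.p14, 250 bases before to 50 after a start) were given for 43 of the 49 genes. The words TTTCGCGC, TTTGGCGC and TTTCCCGC (E2F-type letters), GGGCGG (a GC box, the Sp1-type letters) and CCAAT were searched on both strands, and an E2F-type word overlapped a GC box in 4 of the 43 genes. At least 1 E2F-type word stood in the windows of 21 genes (48.8%), against 3.30% of all 27305 genes with windows. GC boxes stood in 79.1% of the 43 and in 48.3% of all, and CCAAT in 58.1% and 39.7%. The median GC content of the upstream bases was 64.8% for the 53 windows of the 43 genes and 58.0% for all windows. Among the genes called lower at 8 nM, 13 of 23 with a window held an E2F-type word and 19 a GC box, and among those not called the counts were 7 and 14 of 19. The word TTTCCCGC alone went the other way, with 4 of the 23 and 6 of the 19. At 80 nM an E2F-type word stood in 3 of 9 genes called lower, 6 of 10 called higher and 12 of 24 not called. GC boxes stood in 8, 9 and 17 of them. The 250 bases upstream of the start are printed for 5 genes that show the different responses, with all matches in capitals.
CLSPN: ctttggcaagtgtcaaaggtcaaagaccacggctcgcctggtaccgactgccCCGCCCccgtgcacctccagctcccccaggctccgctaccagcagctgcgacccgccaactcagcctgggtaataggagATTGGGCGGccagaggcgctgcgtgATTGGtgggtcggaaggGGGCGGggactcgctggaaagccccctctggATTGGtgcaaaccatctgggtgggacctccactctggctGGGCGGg
CHAF1A: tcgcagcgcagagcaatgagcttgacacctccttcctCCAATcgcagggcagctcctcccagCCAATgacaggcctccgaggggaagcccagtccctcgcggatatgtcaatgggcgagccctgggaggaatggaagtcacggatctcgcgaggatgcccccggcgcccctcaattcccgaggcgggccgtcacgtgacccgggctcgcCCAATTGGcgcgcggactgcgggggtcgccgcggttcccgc
MCM6: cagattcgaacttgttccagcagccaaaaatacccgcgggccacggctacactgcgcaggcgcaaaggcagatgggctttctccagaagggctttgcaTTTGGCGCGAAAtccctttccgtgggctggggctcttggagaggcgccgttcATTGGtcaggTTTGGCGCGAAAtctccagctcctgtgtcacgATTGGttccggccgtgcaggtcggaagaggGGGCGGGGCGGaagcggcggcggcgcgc
PCNA: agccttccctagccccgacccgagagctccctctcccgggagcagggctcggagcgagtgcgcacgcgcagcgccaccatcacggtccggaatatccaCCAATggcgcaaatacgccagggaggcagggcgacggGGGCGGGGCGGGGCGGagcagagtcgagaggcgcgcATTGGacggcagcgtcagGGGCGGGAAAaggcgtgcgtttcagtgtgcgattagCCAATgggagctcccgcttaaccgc
ORC1: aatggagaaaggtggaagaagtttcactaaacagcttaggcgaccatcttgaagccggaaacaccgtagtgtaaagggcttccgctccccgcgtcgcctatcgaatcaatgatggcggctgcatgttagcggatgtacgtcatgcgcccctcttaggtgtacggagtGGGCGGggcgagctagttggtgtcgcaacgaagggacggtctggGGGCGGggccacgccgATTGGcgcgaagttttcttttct
The sequences of CLSPN (chr1:35769979-35770228, minus strand) and CHAF1A (chr19:4402390-4402639, plus strand) belong to genes that fell at both concentrations. CLSPN held 4 GC boxes and 3 CCAAT words there, and CHAF1A 4 CCAAT words and no GC box. MCM6 (chr2:135876444-135876693, minus strand), lower at 8 nM alone by call, held 2 copies of TTTGGCGC, each overlapping a copy of TTTCGCGC on the other strand. It also held 2 GC boxes and 2 CCAAT words. PCNA (chr20:5126623-5126872, minus strand), the gene that rose at both, had another window as well, and the window printed held 4 GC boxes, 3 CCAAT words and 1 TTTCCCGC word that overlapped a GC box. ORC1 (chr1:52404424-52404673, minus strand), lower at 8 nM and higher at 80 nM, held 2 GC boxes and 1 CCAAT word. GC boxes stood in 79.1% of the 43 genes, so 5 chosen windows cannot relate them to the response, which was not tested.

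The origin recognition complex marks origins and recruits the other licensing factors. Of its 6 genes, 1 was called lower at 8 nM, and at 80 nM 3 were called higher and 1 lower. Beside this and each group below, 5.75% of all genes were called lower and 7.93% higher at 8 nM. At 80 nM these shares of all genes were 25.6% and 33.5%. ORC1, the subunit whose level is regulated through the cell cycle, read -0.45, -0.30 and -0.24 on the untreated arrays, -0.94, -0.81 and -0.94 at 8 nM and 0.080, 0.00025 and 0.063 at 80 nM. The 3 groups did not overlap, with 8 nM lowest and 80 nM highest. Its change was -0.57 ± 0.078 (adjusted p = 0.00301) at 8 nM and 0.38 ± 0.078 (adjusted p = 0.00351) at 80 nM. ORC6, the subunit least tightly bound to the others, read 1.10, 1.33 and 1.22 untreated, 1.14, 1.25 and 1.29 at 8 nM and 2.06, 1.94 and 2.04 at 80 nM. Untreated and 8 nM overlapped, while the 80 nM arrays stood 1.74-fold above untreated, a change of 0.80 ± 0.082 (adjusted p = 7.84e-05). ORC2, a core subunit, moved the other way at 80 nM, where it read -0.15, -0.21 and -0.055 against 0.27, 0.42 and 0.35 untreated, all 80 nM arrays being lower, with a change of -0.49 ± 0.077 (adjusted p = 0.000845). ORC3, the partner of ORC2, rose by 0.19 ± 0.070 (adjusted p = 0.0416) at 80 nM, a change that was negative (-0.086) under spike-in scaling. ORC4 and ORC5 were called in neither comparison with untreated cells.

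Of the 3 licensing factors, CDC6 and GMNN were called lower at 8 nM and none was called at 80 nM. CDC6, the ATPase that joins the origin recognition complex to load MCM2-7, read -2.79, -2.78 and -2.62 untreated, -3.30, -3.05 and -3.12 at 8 nM and -2.69, -2.67 and -2.71 at 80 nM. All 8 nM arrays were below the untreated ones, and the 80 nM arrays lay within the untreated range. Its change at 8 nM was -0.43 ± 0.086 (adjusted p = 0.0152). GMNN, the geminin protein that blocks CDT1 after origins have fired, changed by -0.35 ± 0.087 (adjusted p = 0.0331) at 8 nM and its call held in 1 of the 9 omissions of an array. CDT1, which brings MCM2-7 to origins, gave -0.32 ± 0.11 (adjusted p = 0.0847) at 8 nM.

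The 6 MCM2-7 genes encode the subunits of the replicative helicase ring, and 5 of the 6 were called lower at 8 nM, with a median of -0.41. MCM7 read 6.86, 6.74 and 6.74 untreated, 6.17, 6.44 and 6.16 at 8 nM and 6.59, 6.67 and 6.67 at 80 nM. The 8 nM arrays were below all others and the 80 nM arrays were just under the untreated ones. By this probe, the brighter of 2, MCM7 fell by 0.52 ± 0.092 at 8 nM (adjusted p = 0.00873) and was not called at 80 nM. The dimmer probe was higher at 80 nM (0.56 ± 0.16 (adjusted p = 0.0142 over probes, limma)). MCM5 was the member of the ring that went on falling, from 3.37, 3.099 and 3.36 untreated to 2.71, 2.99 and 2.76 at 8 nM and 2.30, 2.35 and 2.37 at 80 nM. The 3 groups did not overlap, and its change was -0.45 ± 0.10 (adjusted p = 0.0239) at 8 nM and -0.93 ± 0.10 (adjusted p = 0.000118) at 80 nM, 1.91-fold lower. MCM2 was lower at 8 nM (-0.33 ± 0.069 (adjusted p = 0.017)) and higher at 80 nM (0.22 ± 0.069 (adjusted p = 0.026)), a rise that turned to -0.062 under spike-in scaling and was called in 3 of the 9 omissions of an array. MCM4 and MCM6 were called lower at 8 nM alone, by -0.45 ± 0.11 (adjusted p = 0.0331) and -0.38 ± 0.080 (adjusted p = 0.0186), while MCM3 gave -0.35 ± 0.12 (adjusted p = 0.088). At 80 nM neither MCM4 (0.30 ± 0.11 (adjusted p = 0.0508)) nor MCM6 (0.039 ± 0.080 (adjusted p = 0.696)) passed the test.

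CDC45 and the 4 GINS subunits bind the MCM ring to form the active helicase. At 8 nM 3 of these 5 genes were called lower, and at 80 nM 2. CDC45 read 3.63, 3.59 and 3.50 untreated, 2.87, 3.25 and 2.90 at 8 nM and 3.51, 3.56 and 3.57 at 80 nM. Its 8 nM arrays lay below all others, with replicate 2 nearest to them, and the 80 nM arrays were within the untreated range. The change of CDC45 was -0.56 ± 0.11 (adjusted p = 0.0116) at 8 nM and -0.029 ± 0.11 (adjusted p = 0.831) at 80 nM. GINS2 kept the same distance at both concentrations, with 3.30, 3.18 and 3.16 untreated, 2.66, 2.95 and 2.64 at 8 nM and 2.66, 2.73 and 2.78 at 80 nM. The treated groups overlapped each other and not the untreated arrays, and the changes were -0.47 ± 0.097 (adjusted p = 0.0172) and -0.49 ± 0.097 (adjusted p = 0.00272). GINS3 was called lower at both as well, by -0.31 ± 0.084 (adjusted p = 0.0423) and -0.44 ± 0.084 (adjusted p = 0.00211). GINS1, whose untreated arrays ranged from 2.41 to 3.06, was not called against untreated cells.

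The other MCM proteins are MCM8, a helicase that acts with MCM9 in recombination, and MCM10, which activates the helicase at origins. MCM8 read 1.35, 1.44 and 1.42 untreated, 1.19, 1.14 and 1.22 at 8 nM and 2.07, 2.10 and 2.14 at 80 nM. The 3 groups were apart, with 8 nM lowest and 80 nM highest. Its fall at 8 nM lay on the threshold (-0.22 ± 0.063 (adjusted p = 0.0498)) and was lost in each of the 9 omissions of an array, whereas at 80 nM it was 1.62-fold higher, a change of 0.70 ± 0.063 (adjusted p = 3.53e-05). MCM10 was called lower at 8 nM alone, by -0.32 ± 0.070 (adjusted p = 0.0218).

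CDC7 and DBF4 form the kinase that fires licensed origins, and DBF4 was called lower at both concentrations while CDC7 was called at neither. DBF4, the regulatory subunit, read 0.82, 0.79 and 0.77 untreated, 0.16, -0.12 and 0.19 at 8 nM and -0.48, -0.29 and -0.36 at 80 nM. By this probe, the brighter of 2, the groups did not overlap and 80 nM was lowest. The change was -0.72 ± 0.097 (adjusted p = 0.0028) at 8 nM and -1.17 ± 0.097 (adjusted p = 2.22e-05) at 80 nM, 2.25-fold lower than untreated. The dimmer probe went the other way at 80 nM, with a change of 0.96 ± 0.21 (adjusted p = 0.00441 over probes, limma), and the mean of both probes changed by -0.11 from untreated to 80 nM and by 0.32 from 8 to 80 nM. CDC7, the catalytic subunit, gave -0.14 ± 0.097 (adjusted p = 0.363) and 0.044 ± 0.097 (adjusted p = 0.714).

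**Figure D3:**
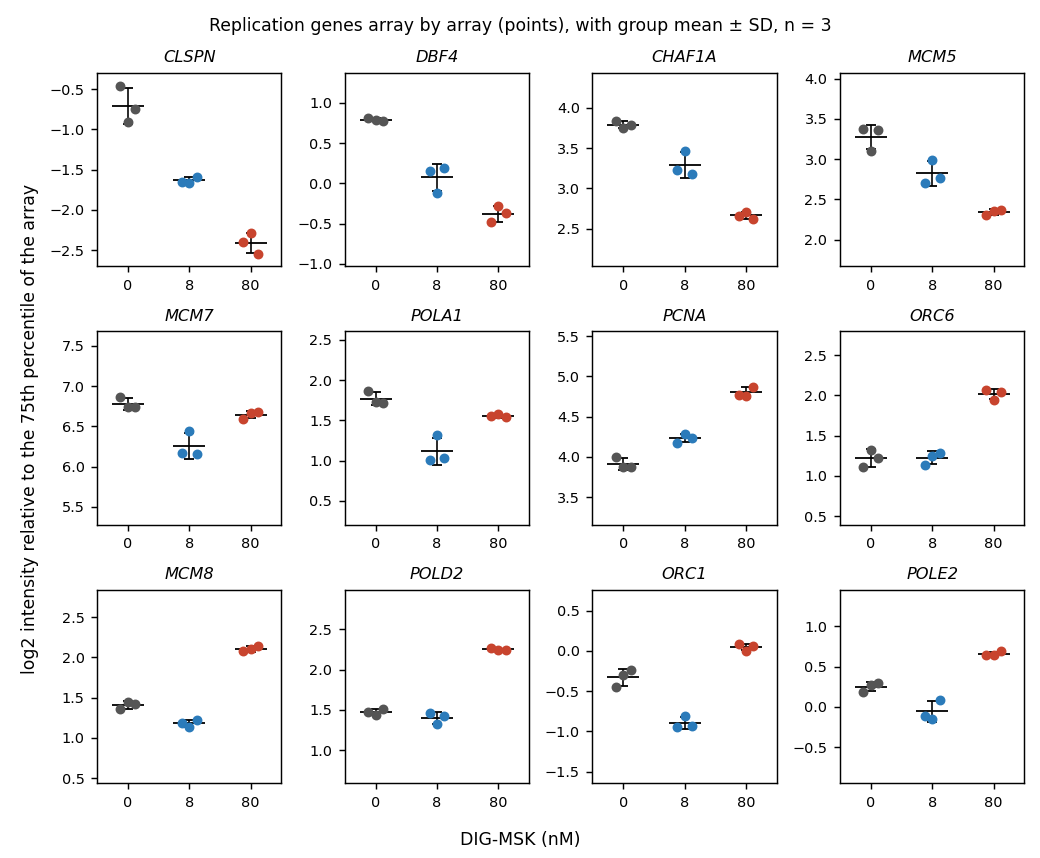
Level of 12 genes on each array (points; log2 intensity relative to the 75th percentile of the array, vertical axes all spanning the same range) at 0, 8 and 80 nM DIG-MSK, with the mean and SD of 3 arrays. CLSPN, DBF4, CHAF1A and MCM5 step down at 8 nM and again at 80 nM, and PCNA steps up. MCM7 and POLA1 dip at 8 nM, and ORC1, MCM8 and POLE2 dip at 8 nM and end above untreated. DBF4, CHAF1A and MCM7 are shown by the brighter of their 2 probes. The other probe was higher than untreated at 80 nM for DBF4 and MCM7, and not called between 8 and 80 nM for CHAF1A.

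DNA polymerase alpha and primase lay down the primers of both strands. Of their 4 genes, 3 were called lower at 8 nM and 1 at 80 nM. POLA1, the catalytic subunit, read 1.86, 1.73 and 1.71 untreated, 1.01, 1.31 and 1.03 at 8 nM and 1.55, 1.58 and 1.54 at 80 nM. Both treated groups lay below the untreated one, the 8 nM arrays lowest. The change of POLA1 was -0.65 ± 0.094 (adjusted p = 0.00378) at 8 nM, 1.57-fold lower, and -0.21 ± 0.094 (adjusted p = 0.0873) at 80 nM. POLA2, its partner subunit, fell by 0.33 ± 0.076 at 8 nM (adjusted p = 0.0246). PRIM1, the catalytic primase subunit, gave -0.31 ± 0.074 (adjusted p = 0.0281) and -0.20 ± 0.074 (adjusted p = 0.049), the latter called in 3 of the 9 omissions of an array.

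Polymerases delta and epsilon extend the lagging and leading strands, and of their 5 genes 2 were called lower at 8 nM, while 2 were called higher and 1 lower at 80 nM, where 33.5% and 25.6% of all genes were called. POLD1, the catalytic subunit of delta, read 3.35, 3.36 and 3.38 untreated, 2.86, 3.25 and 2.78 at 8 nM and 2.73, 2.75 and 2.77 at 80 nM. At 8 nM replicate 2 stood near the untreated arrays and the change of -0.40 ± 0.12 (adjusted p = 0.0554) was not called, while at 80 nM it was -0.61 ± 0.12 (adjusted p = 0.00207). POLD2, the accessory subunit of the same enzyme, read 1.47, 1.44 and 1.504 untreated, 1.46, 1.32 and 1.42 at 8 nM and 2.26, 2.24 and 2.25 at 80 nM. Its untreated and 8 nM arrays overlapped, and the 80 nM arrays were 1.72-fold higher, a change of 0.78 ± 0.065 (adjusted p = 2.27e-05). For epsilon, the catalytic gene POLE was called lower at 8 nM alone by the probe used (-0.53 ± 0.095 (adjusted p = 0.00988)). The dimmer probe of POLE was lower at 8 nM (-0.68 ± 0.11 (adjusted p = 0.00777 over probes, limma)) and at 80 nM (-0.45 ± 0.11 (adjusted p = 0.00938)). POLE2, the accessory subunit of epsilon, was lower at 8 nM (-0.30 ± 0.080 (adjusted p = 0.0393)) and higher at 80 nM (0.41 ± 0.080 (adjusted p = 0.00246)). Its arrays read 0.19, 0.27 and 0.29 untreated, -0.11, -0.14 and 0.091 at 8 nM and 0.64, 0.65 and 0.69 at 80 nM. The 3 groups of POLE2 did not overlap, and its call at 8 nM held in 1 of the 9 omissions of an array.

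PCNA, the sliding clamp that holds polymerases on DNA and also serves in repair, was the gene called higher at both concentrations. It read 4.004, 3.88 and 3.87 untreated, 4.18, 4.29 and 4.24 at 8 nM and 4.77, 4.75 and 4.87 at 80 nM. The 3 groups did not overlap and the level went up with each step. The rise was 0.32 ± 0.072 (adjusted p = 0.0236) at 8 nM and 0.88 ± 0.072 (adjusted p = 2.02e-05) at 80 nM, 1.84-fold above untreated. The call at 8 nM was lost without untreated replicate 2, without untreated replicate 3 and without 8 nM replicate 3. Of the 5 genes for the clamp loader, RFC2 and RFC5 were called lower at 8 nM, by -0.35 ± 0.065 (adjusted p = 0.011) and -0.37 ± 0.092 (adjusted p = 0.0313). RFC2 was called higher at 80 nM (0.27 ± 0.065 (adjusted p = 0.00721)), a rise that came to -0.0096 under spike-in scaling. RFC1, RFC3 and RFC4 were not called in either comparison.

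RPA coats the single strands exposed at forks. Of its 3 genes none was called at 8 nM, and at 80 nM RPA3, the smallest subunit, was lower. RPA3 read 3.91, 3.73 and 3.77 untreated, 3.60, 3.90 and 3.48 at 8 nM and 3.27, 3.42 and 3.32 at 80 nM. The 80 nM arrays lay below all others, with a change of -0.47 ± 0.11 (adjusted p = 0.00749). The enzymes of Okazaki fragment maturation are FEN1, which cuts the flap, and LIG1, which seals the nick. FEN1 was called lower at 8 nM, with 1.03, 1.07 and 1.07 against 1.45, 1.56 and 1.51 untreated and a change of -0.45 ± 0.085 (adjusted p = 0.0118), and gave 0.18 ± 0.085 (adjusted p = 0.0961) at 80 nM. LIG1 was called higher at 80 nM, with 3.26, 3.27 and 3.30 against 2.86, 2.96 and 2.80 untreated and a change of 0.40 ± 0.11 (adjusted p = 0.0112). For FEN1 the untreated and 8 nM arrays did not overlap, and for LIG1 all 80 nM arrays were above the untreated ones.

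CLSPN, the claspin protein that travels with the fork and passes the checkpoint signal from ATR to CHK1, had the lowest change of the 49 genes at each concentration. It read -0.46, -0.91 and -0.75 untreated, -1.65, -1.67 and -1.59 at 8 nM and -2.41, -2.29 and -2.54 at 80 nM. The 3 groups were far apart, although the untreated arrays themselves spread over more than the treated ones. The change was -0.93 ± 0.12 (adjusted p = 0.00218) at 8 nM, 1.9-fold lower, and -1.71 ± 0.12 (adjusted p = 8.34e-06) at 80 nM, 3.27-fold lower. TIMELESS and WDHD1, which also stabilize the fork, were not called in either comparison. TIMELESS gave -0.19 ± 0.12 (adjusted p = 0.319) and -0.16 ± 0.12 (adjusted p = 0.294), and WDHD1 gave -0.26 ± 0.088 (adjusted p = 0.0878) and -0.14 ± 0.088 (adjusted p = 0.202).

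CAF-1 places histones on new DNA behind the fork, and both of its genes were called lower at both concentrations. CHAF1A, the large subunit, read 3.84, 3.75 and 3.78 untreated, 3.23, 3.47 and 3.17 at 8 nM and 2.66, 2.71 and 2.62 at 80 nM. The groups did not overlap. Its change was -0.50 ± 0.088 (adjusted p = 0.0087) and then -1.13 ± 0.088 (adjusted p = 1.6e-05), 2.19-fold lower at 80 nM. CHAF1B read 2.53, 2.48 and 2.44 untreated, 1.81, 2.19 and 1.87 at 8 nM and 2.14, 2.11 and 2.17 at 80 nM. The treated groups overlapped each other and lay below the untreated arrays, with changes of -0.53 ± 0.10 (adjusted p = 0.0128) and -0.34 ± 0.10 (adjusted p = 0.0195). The call of CHAF1B at 80 nM held in 6 of the 9 omissions of an array.

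The 8 nM arrays were not alike. The median of the 49 genes relative to the untreated mean was -0.41 in replicate 1, -0.21 in replicate 2 and -0.35 in replicate 3, whereas the 80 nM arrays ranged from -0.092 to -0.058. Replicate 2 was the highest of the 8 nM arrays in 34 of the 49 genes. It also had the fewest probes above background, 24814, and the lowest 75th percentile of the 8 nM arrays, 833. Without it 31 genes were called lower at 8 nM, against 25 with it.

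Probes of the same gene were compared with each other. In all, 13 of the 49 genes had more than 1 probe. The 3 probes of PCNA all rose, by 0.32 to 0.40 at 8 nM and by 0.798 to 1.149 at 80 nM. The other probe of MCM5 fell by 0.57 and 0.97, and the other probe of CHAF1A by 0.51 and 0.60. From 8 to 80 nM that CHAF1A probe changed by -0.094 ± 0.083 (adjusted p = 0.356 over probes, limma), against -0.63 for the probe used. At 80 nM the probes of 8 of these 13 genes lay on both sides of 0 (DBF4, MCM7, ORC4, ORC5, PRIM2, RFC3, RPA1 and RPA2), as did those of 2 (ORC2 and ORC4) at 8 nM. DBF4 was the gene of the 13 with probes called in opposite directions, its dimmer probe being well above background on 8 of 9 arrays. The second probe of MCM7 was lower at 8 nM (-0.67 ± 0.16 (adjusted p = 0.0255 over probes, limma)) and higher at 80 nM (0.56 ± 0.16 (adjusted p = 0.0142)). The mean of the MCM7 probes at 80 nM was 0.21. PRIM2 was called in neither comparison by its brightest probe. Its 2 dimmer probes were higher at 80 nM, by 0.66 ± 0.16 (adjusted p = 0.0069) and 0.61 ± 0.10 (adjusted p = 0.00107), and the mean of its probes was 0.40. The second probe of RPA1 was also higher at 80 nM (0.42 ± 0.13 (adjusted p = 0.0197)). That of ORC2 was lower at 80 nM like the probe used (-0.87 ± 0.13 (adjusted p = 0.000664)).

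**Figure D4:**
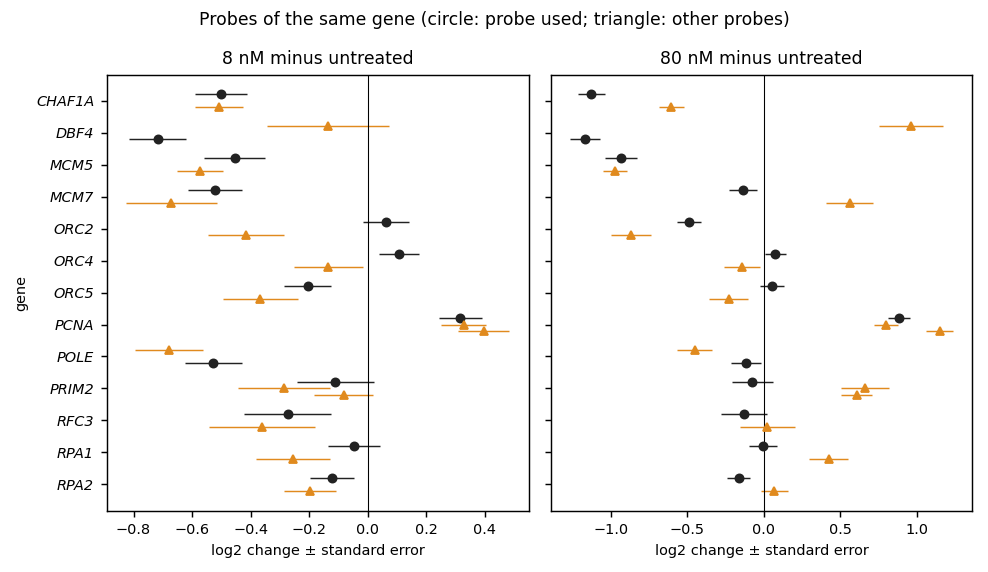
Log2 change (horizontal axis, with the standard error) of each probe of the 13 genes with more than 1 probe (vertical axis) at 8 nM and at 80 nM, the probe used as a circle and the others as triangles. The probes of PCNA, MCM5 and CHAF1A lie on the same side of 0, and at 80 nM those of 8 genes, among them DBF4, MCM7 and PRIM2, lie on both sides.

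Other genes of replication, 28 that are not among the 49, were counted in the same way. At 8 nM 2 were called higher (POLD4 and CHTF8) and 10 lower (35.7%, against 5.75% of all genes), with a median of -0.26. At 80 nM 8 were called higher and 8 lower, 28.6% each, near the 33.5% and 25.6% of all genes, with a median of -0.072. The count of 10 was 12 without 8 nM replicate 2 and between 3 and 5 without any other array, and 0 in the limma fit of the untreated and 8 nM arrays with the replicate block (13 at an unadjusted p under 0.05). The count of 8 called lower at 80 nM was 5 without each of untreated replicates 1, 2 and 3 and 80 nM replicate 3, and 4 without 80 nM replicate 1. The largest called changes at 80 nM were those of POLD4, the small subunit of polymerase delta (0.83 ± 0.084 (adjusted p = 6.99e-05)), ASF1B, a histone chaperone that hands histones to CAF-1 (0.75 ± 0.073 (adjusted p = 5.42e-05)), and SUPT16H, a subunit of the FACT histone chaperone (0.65 ± 0.16 (adjusted p = 0.00734)).

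Cell cycle genes measured on the same arrays were read beside these values. The shares to set beside both lists are those of all genes tested. They were 5.75% lower and 7.93% higher at 8 nM, and 25.6% lower and 33.5% higher at 80 nM. Of 11 cyclin and nucleotide genes of G1/S, 3 were called lower at 8 nM and none higher, and at 80 nM 6 were called higher and 2 lower. The largest called changes at 80 nM were CDK2, the S phase kinase (1.14 ± 0.11 (adjusted p = 5.79e-05)), CCNE2, its cyclin E2 partner (1.07 ± 0.071 (adjusted p = 6.33e-06)), and RRM2, the ribonucleotide reductase subunit (1.03 ± 0.16 (adjusted p = 0.000667)). Of 14 genes of G2/M, 10 were called lower at 8 nM and none higher, and at 80 nM 4 were called higher and 4 lower. Among them CDK1, the mitotic kinase, gave 1.13 ± 0.064 (adjusted p = 2.71e-06) at 80 nM, MKI67, the proliferation marker, -0.81 ± 0.16 (adjusted p = 0.0023), and TOP2A, the topoisomerase, 0.52 ± 0.14 (adjusted p = 0.011). At 8 nM the median change was -0.29 in the G1/S list and -0.32 in the G2/M list, beside -0.32 in the 49 replication genes. At 80 nM the medians were 0.33 and -0.0017, beside -0.095. No test compared these lists with the replication genes, and their part in the result was not tested.

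**Figure D5:**
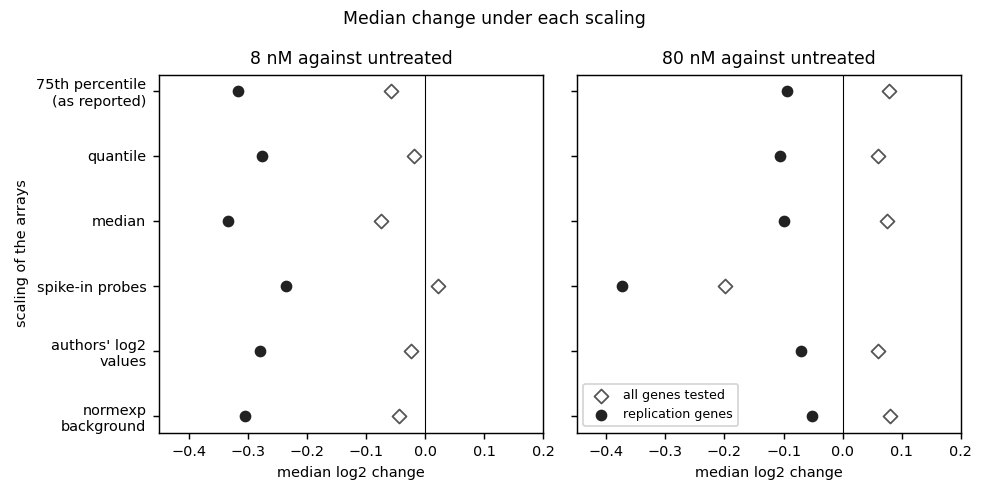
Median log2 change (horizontal axis) of the 49 replication genes (filled circles) and of all genes tested (open diamonds) at 8 nM and 80 nM under 6 ways of scaling or background correction (vertical axis). The replication genes lie left of all genes in every line, at -0.24 to -0.33 for 8 nM and at -0.052 to -0.37 for 80 nM, the last with spike-in scaling, which also moves all genes to -0.20.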

How the data were processed

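Expression was measured in untreated A2780 cells and in cells given 8 or 80 nM DIG-MSK, with 3 arrays each, grouped by their titles. The authors scanned one-colour arrays with Agilent Feature Extraction 10.7.3.1 and deposited its background-subtracted intensity per spot, and a table of quantile-normalized log2 values, which per the file headers name probes by feature number and which followed the log2 median intensity of the same arrays with r of 0.999 to 1.00 (column medians 6.60 to 6.61). The methods name background subtraction and a lowess step within that software. The methods name a labeling kit that differs from the kit in the labels. The 49 genes and all further lists were chosen with earlier results of these data known.

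The deposited intensity was taken as log2, minus the 75th percentile of the array. Spots marked as outliers (0.623% to 0.874% of spots) were left out, and spots of a probe were averaged. A probe was kept if well above background on all 3 arrays of a group, and the brightest probe stood for a gene. Symbols came from RefSeq (GRCh38.p14) for 26364 of 27902 probes with a RefSeq accession. Contrasts of all 9 arrays were fitted with limma 3.58.1 in R 4.3.3, after a test on simulated data, and p-values were adjusted by Benjamini-Hochberg. Genes named with full values were, for each functional group, up to 2 with the largest called change at each concentration, those called in opposite directions, and up to 3 of each further list. Arrays of a group correlated at 0.989 to 0.996. The small number of arrays limits the precision.

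Whether replicate numbers pair the arrays was checked by correlating the deviations of same-numbered arrays from their group means over all genes. For untreated and 8 nM arrays the values were 0.115, 0.102 and 0.164, and for untreated and 80 nM arrays -0.0082, -0.082 and -0.0054. For 8 nM and 80 nM arrays they were 0.0175, -0.124 and -0.0395, while pairs of unlike number there reached 0.118 and 0.128. Untreated and 8 nM arrays of unlike number gave -0.125 to -0.0033. Values this weak do not show that the numbers pair the cultures. The replicate block was printed beside the 8 nM counts, as a fit chosen after seeing the data. Alternatives were another background correction (normexp, on the median signals, since the array data held no mean signal column), scaling on quantiles, the median or spike-in probes, the authors' log2 values, other filters, the mean of probes, fits of 2 groups, the replicate block, the call rule of the methods and the omission of each array.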

Additional observations from a re-analysis of the deposited data

Results flagged for a closer look

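Among the 49 replication genes, 5 were called lower at 8 nM and higher at 80 nM than in untreated cells, and the difference between the concentrations is given from limma. The genes were chosen by their calls on these same arrays and by an adjusted p under 0.05 for that difference. Its direction and its passing of the threshold therefore restate the choice. The difference of 80 nM minus 8 nM on the log2 scale was 0.946 for ORC1 (adjusted p = 2.5e-05), 0.922 for MCM8 (adjusted p = 7.8e-06), 0.715 for POLE2 (adjusted p = 0.00013), 0.616 for RFC2 (adjusted p = 9.4e-05) and 0.550 for MCM2 (adjusted p = 0.00025). The calls behind the choice were of unequal strength. Over the 9 fits that omit 1 array, the call at 8 nM held in 0 for MCM8, 1 for POLE2, 6 for MCM2 and 9 for ORC1 and RFC2, and the call at 80 nM held in 3 for MCM2 and 9 for the other 4. In the fit of the untreated and 8 nM arrays with the replicate block, none of the 5 was called at 8 nM. With spike-in scaling the differences kept their direction, at 0.59, 0.56, 0.36, 0.26 and 0.19 in the same order, and none was called. The 80 nM arrays came from another slide, and the slide and the concentration cannot be told apart.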

How the results depend on the processing

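The count of replication genes called lower at 8 nM (25) was 14 with median scaling, 0 with spike-in scaling, 14 with no filter on dim probes, 9 with only the 2 groups compared, 2 with the replicate block on the untreated and 8 nM arrays, 18 with the replicate block on all arrays, 3 by the call rule of the methods and 12 to 31 with an array left out. The count called higher (1) was 0 in these same fits, the block on all arrays included, and 0 to 1 with an array left out. With quantile scaling, normexp, the authors' log2 values, the mean of probes or the filter on all 9 arrays it was 24 to 27 lower. At 80 nM the count called higher (10) was 1 with spike-in scaling, 4 by the rule of the methods and 8 to 10 with an array left out, and the count called lower (11) was 17 with the authors' log2 values, 5 by that rule and 9 to 15 with an array left out. For 80 nM against 8 nM the count called higher (24) was 0 with spike-in scaling, 9 by that rule and 20 to 29 with an array left out, and the count called lower (6) was 2 by that rule and 5 to 6 with an array left out.

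For the 28 other replication genes at 8 nM, the count called higher (2) was 1 with median scaling, with only the 2 groups compared, with the block on the untreated and 8 nM arrays and by the rule of the methods, 0 with spike-in scaling and 1 to 2 with an array left out. The count called lower (10) was 6 with median scaling, 0 with spike-in scaling, 3 with no filter, 2 with only the 2 groups compared, 6 with the block on all arrays, 0 with the block on the untreated and 8 nM arrays, 1 by the rule of the methods and 3 to 12 with an array left out. At 80 nM the count called higher (8) was 0 with spike-in scaling, 4 by that rule and 6 to 8 with an array left out, and the count called lower (8) was 5 with no filter, 1 by that rule and 4 to 10 with an array left out.

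Among changes called in the reported fit or under the alternative, those that turned sign at 80 nM against untreated cells were ORC3 (-0.086), MCM2 (-0.062) and RFC2 (-0.0096) with spike-in scaling, and MCM7 (0.21) and PRIM2 (0.40) with the mean of probes. At 80 nM against 8 nM they were ORC3 (-0.066), ORC5 (-0.10), GMNN (-0.079), MCM10 (-0.049), POLA2 (-0.13) and RFC1 (-0.17) with spike-in scaling and DBF4 (0.32) with the mean of probes. With spike-in scaling a further 7 and 13 changes, called in neither fit, turned sign in these comparisons. The causes of these turns and of the changes in the counts were not tested. Of the genes called at 80 nM, 17 of 21 kept their call in all 9 omissions, CHAF1B, MCM2, ORC3 and PRIM1 being the exceptions. With 3 arrays a group, small changes lie within the spread between arrays, and a change that missed the threshold is not shown to be absent.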
